A study of Mus musculus with 18 samples.

Results

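The transcripts of the interleukin-1 family were followed in the mouse colon by RNA-Seq. The 10 genes are the ligands Il1a, Il1b, Il18 and Il33, the receptor antagonist Il1rn, and the receptors Il1r1, Il1rap, Il1r2, Il1rl1 and Il18r1. They were chosen by symbol, and all 10 were found among the 47729 genes of the count table. In all, 3 groups of 3 mice were compared. Naive WT mice (1 to 3) carried the label Control. WT CAC mice (4 to 6) had colitis-associated cancer, induced by a single dose of 10 mg/kg of the carcinogen azoxymethane (AOM) and 3 cycles of 2.5% dextran sulfate sodium (DSS), a polymer that injures the colonic epithelium. Cldn2TG CAC mice (7 to 9) received the same AOM-DSS treatment and carried a Claudin-2 transgene under the villin promoter, which is active in the intestinal epithelium. The colonies were on a C57BL/6 background, and the labels give neither age nor sex. No naive Cldn2TG mice were analysed here, so the transgene could not be tested outside CAC. The labels attach the AOM-DSS protocol to every sample, and the naive WT group was taken from the treatment label. They also do not say that each library is a separate mouse, so p-values measure the spread between these libraries.

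Interleukin-1 alpha (Il1a) and interleukin-1 beta (Il1b) both signal through Il1r1, which needs the co-receptor Il1rap. Il1rn encodes a secreted antagonist that occupies Il1r1 without signaling, and Il1r2 is a decoy receptor that binds the ligands and lacks a signaling domain. Il18 binds Il18r1 and Il33 binds Il1rl1 (ST2), and both are known as ligands made by barrier epithelium and stroma. Il1b and Il18 are released after caspase-1 cleavage in the inflammasome, a step that RNA does not measure.

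Gene counts summed to 14142711 to 22262546 reads in a mouse. Mitochondrial genes took 2.86% to 3.50% of counts in naive WT, 3.54% to 4.69% in WT CAC and 4.57% to 5.76% in Cldn2TG CAC mice, and their part in the results was not tested. A count of 3, taken as the limit that a count of 0 allows, is 0.135 to 0.212 CPM (counts scaled to a common library total, TMM-normalized in all values that follow) before normalization, for counting error only. WT CAC mouse 4 stood apart from its group. Over 13916 genes, its log2 CPM differed from WT CAC mice 5 and 6 by a root mean square of 0.660 to 0.717, from the Cldn2TG CAC mice by 0.663 to 0.722 and from the naive WT mice by 0.687 to 0.745, whereas mice 5 and 6 differed from each other by 0.483. Xist, which female cells transcribe, reached 214 CPM in naive WT mouse 1 and at most 0.203 CPM in the other 8 mice, so sex was not the same within the naive WT group. Cldn2 itself, the gene of the transgene, had 208 to 251 CPM in Cldn2TG CAC mice, 119 to 137 CPM in the WT CAC group and 191 to 259 CPM in naive WT mice. It was thus higher in Cldn2TG CAC than in WT CAC mice without overlap, and it overlapped with naive WT mice.

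Of the 10 members, 6 lie beside another member (GRCm38). Il1r2 (chr1:40074079-40125231), Il1r1 (chr1:40225080-40317257), Il1rl1 (chr1:40429570-40465415) and Il18r1 (chr1:40465552-40500854) follow each other on the plus strand of chromosome 1. Il1a (chr2:129299610-129309972) and Il1b (chr2:129364570-129371139) are near each other on chromosome 2. Il1rn (chr2:24336853-24351494), Il18 (chr9:50575273-50581837), Il1rap (chr16:26581704-26730117) and Il33 (chr19:29925114-29960718) stand alone. The 250 bases before the annotated start were read for all 10 members from RefSeq (GRCm38.p6, 17 windows) and searched on both strands for AP-1 (TGANTCA), C/EBP (TTNNGNAA) and the NF-kB consensus of 10 letters, sites of transcription factors that act in inflammation. The windows of Il1b, Il1r2 and Il1rl1 are shown because these genes were called both in WT CAC against naive WT and in Cldn2TG CAC against WT CAC, and that of Il18 because it was called in the other direction. Capitals mark C/EBP matches, the kind found in these windows.

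Il1b, chr2:129371140-129371389, minus strand: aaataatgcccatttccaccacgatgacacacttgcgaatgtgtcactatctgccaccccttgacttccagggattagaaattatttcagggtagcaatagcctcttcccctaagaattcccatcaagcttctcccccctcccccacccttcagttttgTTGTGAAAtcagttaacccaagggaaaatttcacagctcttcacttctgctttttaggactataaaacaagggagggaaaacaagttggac
Il1r2, chr1:40085843-40086092, plus strand: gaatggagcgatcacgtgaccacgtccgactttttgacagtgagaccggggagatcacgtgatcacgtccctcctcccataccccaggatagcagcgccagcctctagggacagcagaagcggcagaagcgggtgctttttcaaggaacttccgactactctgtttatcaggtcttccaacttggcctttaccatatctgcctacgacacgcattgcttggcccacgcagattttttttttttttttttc
Il1rl1 first start, chr1:40429320-40429569, plus strand: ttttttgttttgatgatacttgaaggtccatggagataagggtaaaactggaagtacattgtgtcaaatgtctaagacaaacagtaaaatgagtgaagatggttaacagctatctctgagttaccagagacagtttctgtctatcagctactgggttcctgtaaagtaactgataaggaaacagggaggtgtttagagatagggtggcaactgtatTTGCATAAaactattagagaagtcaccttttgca
Il1rl1 second start, chr1:40439379-40439628, plus strand: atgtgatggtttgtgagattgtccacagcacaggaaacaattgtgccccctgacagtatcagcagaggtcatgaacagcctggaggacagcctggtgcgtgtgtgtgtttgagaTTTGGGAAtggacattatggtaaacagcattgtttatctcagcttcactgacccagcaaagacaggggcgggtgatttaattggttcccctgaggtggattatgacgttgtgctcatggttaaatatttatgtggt
Il18, chr9:50554450-50554699, plus strand: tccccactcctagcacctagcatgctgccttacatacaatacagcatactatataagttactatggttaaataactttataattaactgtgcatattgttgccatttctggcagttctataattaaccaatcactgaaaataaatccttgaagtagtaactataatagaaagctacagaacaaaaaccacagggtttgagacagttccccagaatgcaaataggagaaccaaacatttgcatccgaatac

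The Il1b window held 1 C/EBP match, 91 bases before the start, and each Il1rl1 window held 1, at 34 and 136 bases before it. Those of Il1r2 and Il18 held none of the 3 motifs. The RefSeq start of Il18 lies upstream of the gene's first base in the count table, so the counted exons do not include that start, and the start shown for Il1r2 lies inside the gene as counted. C/EBP matches were found for 6 of the 10 members and in 36.8% of all 32851 promoter windows. These shares differ in kind, since a member can have several windows, and windows of Il1rn overlap and hold 1 match in common. AP-1 was matched only in Il1a, 12 bases before the start, and in 1 window of Il1rn (6.7% of all windows), and NF-kB in 1 window of Il1r1, where it overlaps a C/EBP match (7.3%). A match is a run of letters and not a measured site.

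Levels of different genes were compared as CPM per kilobase of the exon length given with the counts. In naive WT mice, Il18 led with 212 ± 59.2 (SD, n = 3), followed by Il1rn with 24.1 ± 2.82, Il1r1 with 4.16 ± 0.505, Il33 with 1.58 ± 0.274 and Il1rap with 0.881 ± 0.0514. The ranges of these 5 genes did not overlap. Il1b (0.313 ± 0.0890), Il1rl1 (0.192 ± 0.141), Il1a (0.137 ± 0.0376), Il18r1 (0.0656 ± 0.00570) and Il1r2 (0.0641 ± 0.0450) came last, and in this lower part only Il1a and Il18r1 were neighbours whose ranges stayed apart. The first 6 genes kept this order in Cldn2TG CAC mice, with Il18 at 195 ± 20.2 and Il1b at 0.343 ± 0.114. In WT CAC mice, Il18 (128 ± 22.2) and Il1rn (36.9 ± 5.18) remained first, but Il1b came next with 5.36 ± 4.47. From Il1b down to Il18r1 (0.375 ± 0.328), each gene's range overlapped with the next, and mouse 4 lay far below mice 5 and 6 for Il1b, Il33, Il1a and Il1rl1. Of the 4 ligands summed per kilobase, Il18 made up 98.5% to 99.3% in the naive WT mice, in mouse 4 and in the Cldn2TG CAC mice, against 88.5% in mouse 5 and 88.6% in mouse 6.

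**Figure D1:**
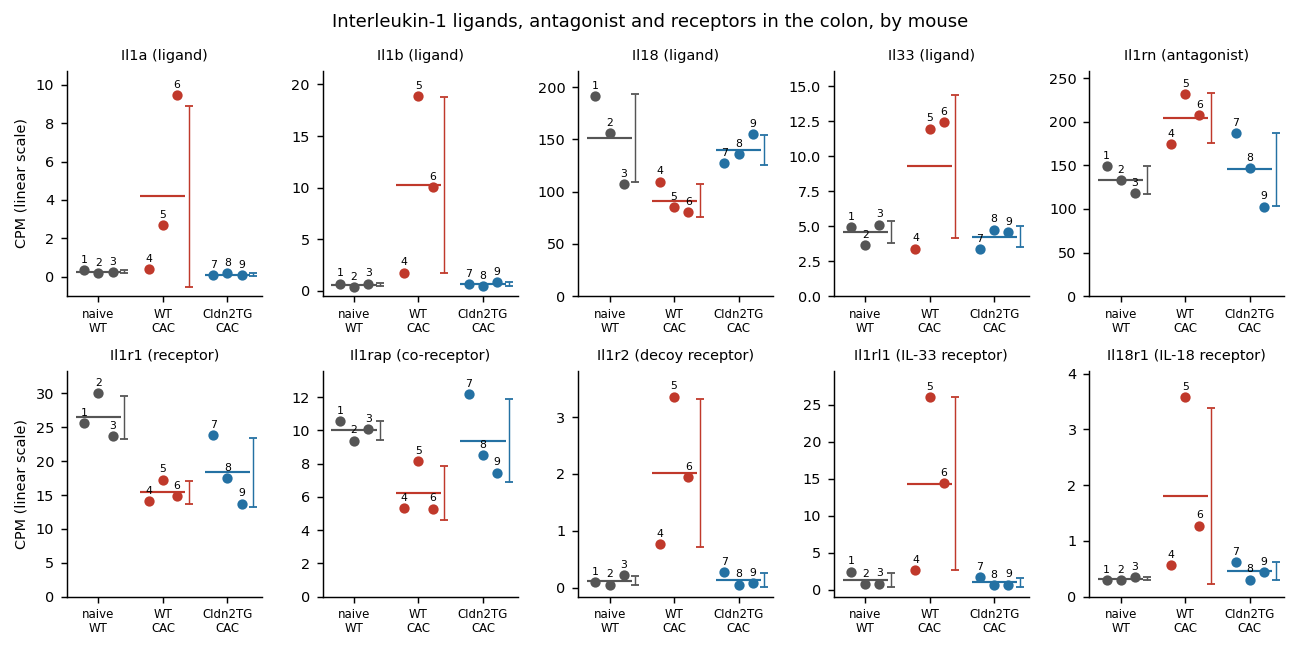
Level of the 10 genes in each mouse, in CPM on a linear axis; points are mice with their numbers, horizontal lines are group means and bars are ± SD (n = 3). Il1a, Il1b, Il33, Il1r2, Il1rl1 and Il18r1 are highest in WT CAC mice 5 and 6, with mouse 4 below them, whereas Il18 is lowest in mice 5 and 6.

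WT CAC was first compared with naive WT, which asks what AOM-DSS changed in WT mice. Il1b, Il1r2 and Il1rl1 rose by 10.9- to 17.1-fold in mean CPM, Il18r1 by 5.71-fold and Il1rn by 1.53-fold, and Il1r1 fell to 0.581 of its naive level. Of the 9 members tested, 5 were therefore called higher and 1 lower (edgeR's quasi-likelihood test, adjusted p under 0.05), where 8.04% of the 15437 genes tested were called higher and 6.92% lower. Il1a had too few counts to be tested, and Il1r2 and Il18r1 reached the minimum of the filter on low counts in the 3 WT CAC mice and in no naive WT mouse, so that being tested already required them to be higher there. Of the other 7, 3 were called higher and 1 lower, with a median log2 fold change of 0.64 (0.02 over all genes tested), and 5 did not overlap between groups (38.0% of all genes tested). Without mouse 5 the ratio of mean CPM was 9.89 for Il1b, 11.1 for Il1r2, 6.42 for Il1rl1 and 2.90 for Il18r1, whereas it was 18.8 for Il1rl1 without mouse 1 and 27.0 for Il1r2 without mouse 3. Each of the 6 calls was lost without naive WT mouse 1, 2 or 3 in turn (adjusted p from 0.0501 to 0.150), at 0.848 to 1.22 times the log2 fold change of all mice. Calls over all genes fell from 2310 to between 135 and 631 in these fits. Without WT CAC mouse 4, 7 members were called higher and 2 lower of 10 tested, and the shares of all genes were then 14.1% and 11.6%. Among the 7, Il1a, Il1r2 and Il18r1 had at most 8 counts in any naive WT mouse. They passed the filter through WT CAC mice alone, so being tested already required them to be higher. The others called were Il1b, Il1rn, Il1rl1 and Il33 (higher) and Il1r1 and Il18 (lower).

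Cldn2TG CAC was next compared with WT CAC, which asks whether levels in CAC differed with the transgene. Il1b, Il1r2 and Il1rl1 fell to between 0.0640 and 0.0679 of their WT CAC level, and Il18 rose by 1.52-fold. Thus 3 of the 9 members tested were called lower and 1 higher, with 7.35% of the 14888 genes tested called lower and 2.19% higher. Il1r2 again reached the minimum of the filter in WT CAC mice alone. Of the other 8, 2 were called lower and 1 higher, with a median log2 fold change of -0.83 (0.01 over all genes tested), and 3 did not overlap between groups (28.5% of all genes tested). Without mouse 5 the level relative to WT CAC was 0.111 for Il1b and 0.115 for Il1rl1, whereas without mouse 7 it was 0.0308 for Il1r2 and 0.0443 for Il1rl1. Both comparisons share the WT CAC mice, so the opposite directions are not independent. Without mouse 4, 6 members were called lower and 1 higher of 10 tested, and the shares of all genes were then 13.1% and 6.08%. Among the 6, Il1a, Il1r2 and Il18r1 had at most 9 counts in any Cldn2TG CAC mouse. They passed the filter in this fit through WT CAC mice alone, so being tested already required them to be lower. The others called were Il1b, Il1rl1 and Il33 (lower) and Il18 (higher). Without mouse 5, 8 or 9 none of the 4 calls was kept (adjusted p from 0.0536 to 0.168), at 0.801 to 1.06 times the log2 fold change of all mice, and calls over all genes fell from 1421 to between 58 and 555. In bulk colon, fewer cells of a type and less RNA per cell cannot be told apart.

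Cldn2TG CAC was last compared with naive WT, using mice that the first 2 comparisons also used. None of the 7 members tested was called by edgeR, with 1 at an unadjusted p under 0.05 (Il1r1) and 0 called by DESeq2. Over all genes tested, 3.92% were called higher and 6.07% lower, a split that library-size scaling moved from 589 higher and 912 lower to 276 and 1310. Every one of the 7 members tested overlapped between these groups, whereas 31.2% of all genes tested did not. Il1a, Il1r2 and Il18r1 had too few counts in both groups to be tested, and their ranges overlapped as well. For Il1a this rested on mouse 8 (0.203 CPM) against mouse 2 (0.201 CPM), with 4 counts in each.

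**Figure D2:**
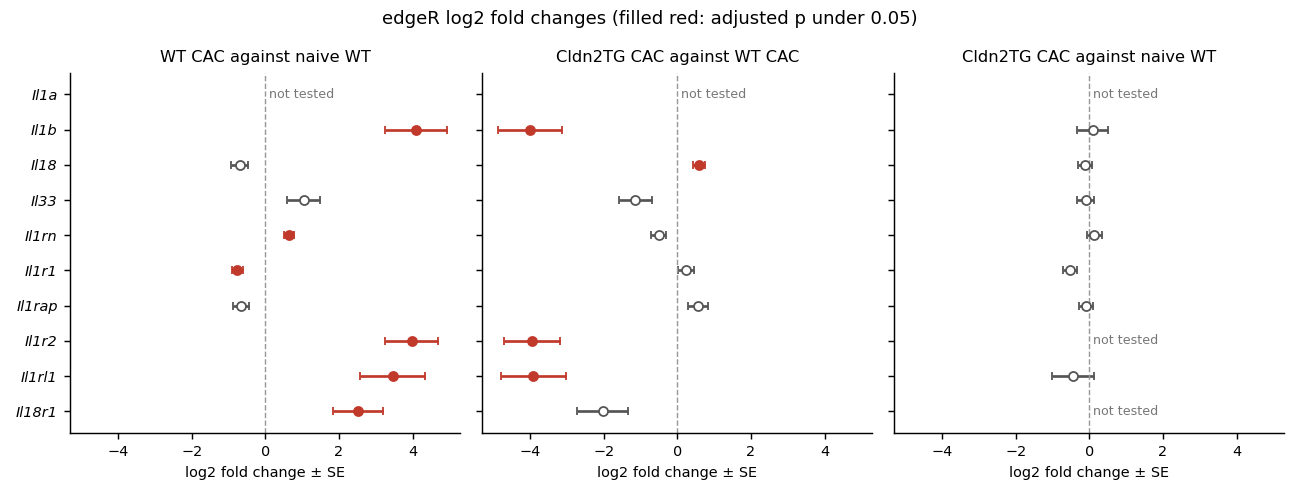
Log2 fold change of each gene with its standard error in the 3 comparisons, from edgeR on 3 mice against 3; filled red points have an adjusted p under 0.05. Il1b, Il1r2 and Il1rl1 lie near 4 in the first comparison, near -4 in the second and, where tested, near 0 in the third.

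Among the ligands, Il1b had 0.697, 0.402 and 0.695 CPM in naive WT mice 1 to 3. It had 1.78 CPM in WT CAC mouse 4, 18.8 in mouse 5 and 10.0 in mouse 6, and 0.620, 0.456 and 0.886 CPM in Cldn2TG CAC mice 7 to 9. All 3 WT CAC mice were above the other 6, mouse 4 by the least. The log2 fold change was 4.10 (SE 0.84, adjusted p = 0.0249) in WT CAC against naive WT, -4.00 (SE 0.86, adjusted p = 0.0322) in Cldn2TG CAC against WT CAC and 0.10 (SE 0.42, adjusted p = 0.911) in Cldn2TG CAC against naive WT. The first call was lost without mouse 1, 2, 3 or 6 (adjusted p from 0.0604 to 0.102) and the second without mouse 5, 6, 7, 8 or 9 (0.0616 to 0.138). With no filter on low counts neither was called (0.0898 and 0.140), and without mouse 4 both were (0.000249 and 8.75e-05). Reads of the antisense gene Il1bos, 26 against 679 for Il1b over all mice, cannot be separated, since the strand setting is not given in the sources used here.

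Il1a was rarer. It had 7, 4 and 6 counts in naive WT mice, 8, 61 and 141 counts in WT CAC mice 4 to 6, and 1, 4 and 1 counts in Cldn2TG CAC mice. Mouse 6 was highest for Il1a, in contrast to Il1b, which was highest in mouse 5. Per read counted, WT CAC mice had 13.6-fold more Il1a than naive WT mice (95% exact interval 8.30 to 23.8, counting error only) and 29.2-fold more than Cldn2TG CAC mice (13.2 to 80.5). Without mouse 6, which held 141 of the 210 counts of WT CAC, these ratios were 6.05 and 13.0, and without mouse 8 the second was 51.5. Without mouse 4, Il1a passed the filter and was called in both (log2 fold changes of 4.47 and -5.53, adjusted p = 0.00251 and 0.000917). In these fits only WT CAC mice brought Il1a past the filter, so being tested already required it to be higher in WT CAC. It also passed the filter without mouse 1, 2 or 3 in the first (adjusted p = 0.134 to 0.168) and without mouse 7, 8 or 9 in the second comparison (0.155 to 0.180) and was not called, nor was it in all mice with no filter (0.162 and 0.195). The gene overlaps Gm14023 on the other strand, which had 106 counts against 233 for Il1a.

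Il18, the most abundant ligand, went the other way. It had 192, 156 and 107 CPM in naive WT mice, 110, 84.9 and 80.1 CPM in the WT CAC group and 127, 136 and 155 CPM in Cldn2TG CAC mice. Mice 5 and 6 were the lowest of all, and the naive WT mice alone spread from 107 to 192 CPM. WT CAC did not differ from naive WT at the threshold (log2 fold change -0.70, SE 0.22, adjusted p = 0.0710), although DESeq2, the fit of all 9 mice and the fit without mouse 4 called Il18 lower. It was higher in Cldn2TG CAC than in WT CAC mice by 0.58 (SE 0.15, adjusted p = 0.0490). This call was lost with library-size scaling (0.0705), upper-quartile scaling (0.0640), all 9 mice in the fit (0.0867) and lane 2 only (0.106), and without any mouse other than mouse 4 (0.10 to 0.168). Against naive WT, Il18 in Cldn2TG CAC mice differed by -0.12 (SE 0.19, adjusted p = 0.747).

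Il33, an alarmin stored in the nucleus, divided the WT CAC group. It had 4.93, 3.67 and 5.12 CPM in naive WT mice, 3.40 CPM in WT CAC mouse 4, 12.0 and 12.5 CPM in mice 5 and 6, and 3.38, 4.76 and 4.58 CPM in Cldn2TG CAC mice. Mouse 4 was thus below all naive WT mice, and mice 5 and 6 were above every other mouse. Neither comparison with WT CAC passed the threshold (log2 fold changes of 1.04, SE 0.45, adjusted p = 0.156, and of -1.14, SE 0.45, adjusted p = 0.167). Without mouse 4 both did, with adjusted p = 0.00308 and 0.00147.

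The antagonist Il1rn was abundant in every mouse. It had 149, 133 and 118 CPM in naive WT mice, 174, 231 and 207 CPM in the WT CAC group and 187, 147 and 103 CPM in Cldn2TG CAC mice. All WT CAC mice were above the naive WT mice, and Cldn2TG CAC mouse 7 was above mouse 4. Its log2 fold change was 0.64 (SE 0.14, adjusted p = 0.0263) in WT CAC against naive WT and -0.51 (SE 0.21, adjusted p = 0.191) in Cldn2TG CAC against WT CAC. The former call held only without mouse 4 among the fits that left out 1 mouse, with adjusted p from 0.0596 to 0.101 without mouse 1, 2, 3, 5 or 6. The counts do not separate the secreted from the intracellular forms of Il1rn.

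The signaling receptor Il1r1 was lower in WT CAC mice. It had 25.7, 30.0 and 23.8 CPM in naive WT mice, 14.1, 17.3 and 14.8 CPM in the WT CAC group and 23.8, 17.5 and 13.7 CPM in Cldn2TG CAC mice. Here mouse 4 stood with its own group, whereas Cldn2TG CAC mouse 7 was level with the lowest naive WT mouse and mice 8 and 9 lay just above and just below the WT CAC group. Il1r1 fell by 0.76 on the log2 scale (SE 0.14, adjusted p = 0.0185) in WT CAC against naive WT, and the call was lost without mouse 1 (0.0582), mouse 2 (0.0773) or mouse 3 (0.0501). Cldn2TG CAC differed from WT CAC by 0.23 (SE 0.21, adjusted p = 0.600) and from naive WT by -0.52 (SE 0.19, adjusted p = 0.115), the latter called with no filter (0.00509) and without mouse 7 (0.0234). Its co-receptor Il1rap had 10.6, 9.39 and 10.1 CPM in naive WT mice, 5.33, 8.14 and 5.29 CPM in the WT CAC group and 12.2, 8.51 and 7.46 CPM in Cldn2TG CAC mice. WT CAC and naive WT mice did not overlap for Il1rap, yet the difference of -0.65 (SE 0.22) missed the threshold (adjusted p = 0.0802), as did that of 0.56 (SE 0.27, adjusted p = 0.263) in Cldn2TG CAC against WT CAC. DESeq2 and the fit without mouse 5 called the former.

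The decoy receptor Il1r2 had few reads outside WT CAC. It had 2, 1 and 5 counts in naive WT mice, 15, 76 and 29 counts in the WT CAC group and 4, 1 and 1 counts in Cldn2TG CAC mice. In CPM, the WT CAC mice had 0.762, 3.36 and 1.94 and every other mouse at most 0.276, so that even mouse 4 was clearly above them. The ratio of WT CAC to naive WT per read counted was 16.5 (95% exact interval 8.12 to 39.1, counting error only) and that of WT CAC to Cldn2TG CAC 16.7 (7.45 to 46.4). Without mouse 5 they were 10.0 and 10.1, without mouse 3 the first was 28.0 and without mouse 7 the second was 34.9. The fitted log2 fold changes were 3.97 (SE 0.71, adjusted p = 0.0158) and -3.94 (SE 0.76, adjusted p = 0.0178), both for a gene that passed the filter through WT CAC mice alone. Like that of Il1r1 in the first comparison, each of these calls was kept in 3 of the 6 fits that left out 1 mouse. The call against naive WT was lost without mouse 1, 2 or 3 (adjusted p from 0.0501 to 0.0731) and the call against Cldn2TG CAC without mouse 5, 8 or 9 (0.0536 to 0.0953).

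Il1rl1, the receptor of Il33, had 2.44, 0.703 and 0.825 CPM in naive WT mice, 2.59, 26.1 and 14.4 CPM in the WT CAC group and 1.65, 0.608 and 0.665 CPM in Cldn2TG CAC mice. Mouse 4 exceeded naive WT mouse 1 by little, and mice 5 and 6 exceeded all others widely. Log2 fold changes were 3.46 (SE 0.89, adjusted p = 0.0453) in WT CAC against naive WT and -3.91 (SE 0.88, adjusted p = 0.0396) in Cldn2TG CAC against WT CAC. Both calls were lost with no filter (0.169 and 0.173), with lane 2 only (0.0571 and 0.0714) and without any mouse other than mouse 4, where the adjusted p was 0.0767 to 0.150 and 0.0824 to 0.159. The counts do not separate the membrane form of ST2 from its soluble form.

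Il18r1, the ligand-binding chain of the IL-18 receptor, had 6, 6 and 8 counts in naive WT mice, 11, 81 and 19 counts in the WT CAC group and 9, 6 and 6 counts in Cldn2TG CAC mice. In CPM, mouse 4 (0.559) was below Cldn2TG CAC mouse 7 (0.620) and above the naive WT mice (at most 0.347). It was called higher in WT CAC than in naive WT mice (log2 fold change 2.53, SE 0.68, adjusted p = 0.0453), a call lost without mouse 1, 2, 3, 5 or 6 (0.0734 to 0.145), and it was not called in Cldn2TG CAC against WT CAC (-2.03, SE 0.69, adjusted p = 0.111). Il18rap, its signaling partner, had 6, 1 and 3 counts in naive WT mice, 10, 51 and 21 counts in the WT CAC group and 2, 0 and 2 counts in Cldn2TG CAC mice. It was also called higher in WT CAC than in naive WT mice (3.11, SE 0.72, adjusted p = 0.0290), again lost without mouse 1, 2, 3, 5 or 6 (0.0596 to 0.109), and was too rare to be tested against Cldn2TG CAC. Il18rap too passed the filter through WT CAC mice alone.

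**Figure D3:**
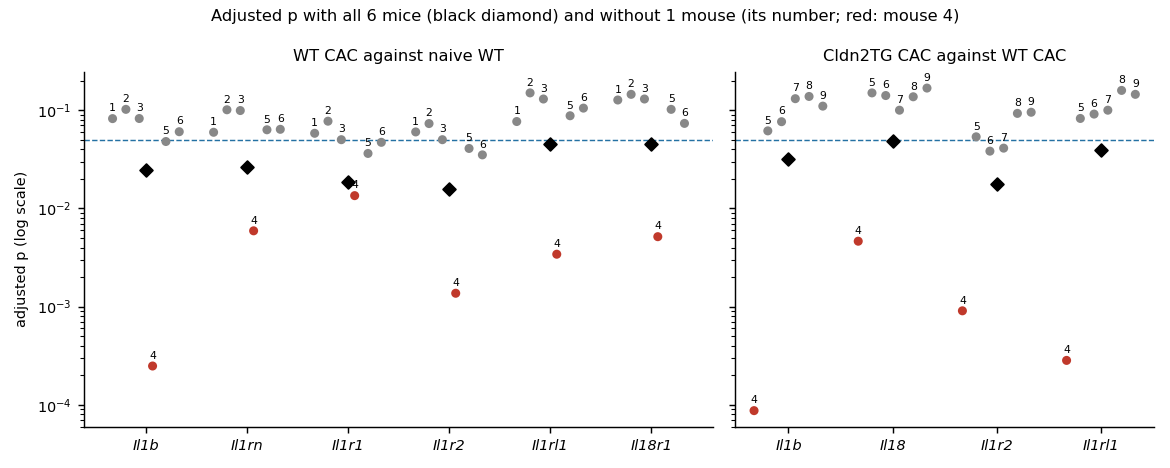
Adjusted p (log axis) of the called genes in WT CAC against naive WT and in Cldn2TG CAC against WT CAC, with all 6 mice (black diamonds) and without the mouse whose number is given. Leaving out mouse 4 (red) gave the lowest adjusted p for each gene, and points above the dashed line at 0.05 are fits that lost the call.

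Inhibitors were then set against their targets as log2 ratios of counts per kilobase (0.5 counts added). The ratio of Il1rn to Il1b was 6.15, 6.75 and 5.82 in naive WT mice, 5.06, 2.08 and 2.82 in the WT CAC group and 6.62, 6.71 and 5.26 in Cldn2TG CAC mice. Antagonist transcripts thus exceeded Il1b in every mouse, by 4.22-fold in mouse 5 and by 33.3-fold or more in the naive WT mice, mouse 4 and the Cldn2TG CAC mice. WT CAC did not overlap with either other group for this ratio. The ratio of the decoy Il1r2 to Il1r1 was -5.95, -6.90 and -4.90 in naive WT mice, -2.42, -0.62 and -1.17 in the WT CAC group and -4.53, -6.11 and -5.22 in Cldn2TG CAC mice, again without overlap. The decoy was below the signaling receptor in all 9 mice. For both ratios, the two-sided exact permutation test of WT CAC against each other group gave p = 0.1, the smallest it can give for 3 mice against 3, and 0.225 after adjustment over the 9 tests. Il18bp, a secreted protein that binds IL-18, averaged -6.00 ± 1.43 against Il18 in naive WT mice, -3.70 ± 0.812 in the WT CAC group and -5.05 ± 0.437 in Cldn2TG CAC mice. These ranges overlapped (exact permutation p = 0.2 for both comparisons with WT CAC, 0.300 adjusted).

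**Figure D4:**
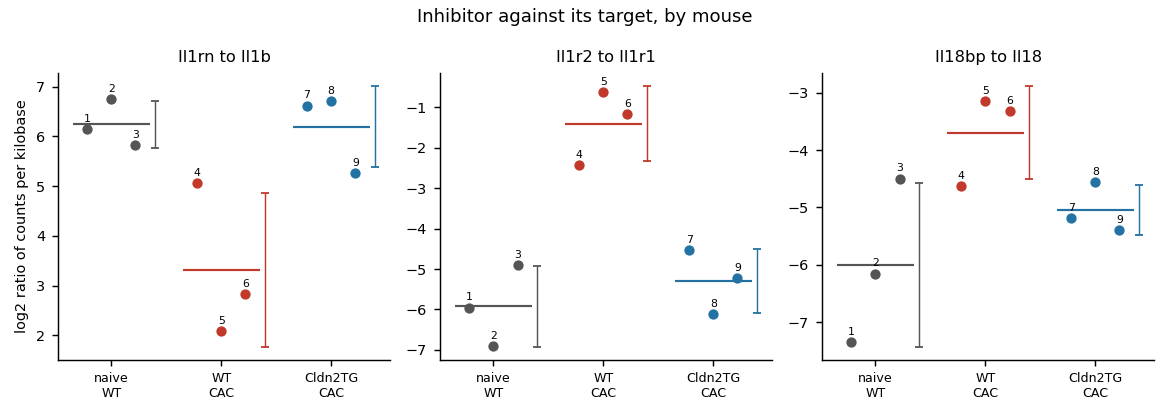
Log2 ratio of counts per kilobase of an inhibitor to its target in each mouse (numbered points), with group means (lines) and SD (bars, n = 3). The ratio of Il1rn to Il1b is lowest, and that of Il1r2 to Il1r1 highest, in the 3 WT CAC mice.

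Of 11 further ligands and receptors of the family, 4 were tested in WT CAC against naive WT and 1 was called higher (Il18rap, which only WT CAC mice brought past the filter), where 8.04% of all genes tested were called higher. Of the 3 tested in Cldn2TG CAC against WT CAC, edgeR and DESeq2 called 0, with 1 at an unadjusted p under 0.05, and of the 3 tested in Cldn2TG CAC against naive WT they called 0, with 0 at an unadjusted p under 0.05. Il1f9 (interleukin-36 gamma) had 18 counts in WT CAC mouse 5, 14 in mouse 6 and 0 in the other 7 mice. Against the limit of 3 counts per library, its mean in WT CAC mice was at least 4.03-fold higher than in naive WT and at least 2.99-fold higher than in Cldn2TG CAC mice. Il1f8 and Il1f6, also interleukin-36 ligands, reached at most 10 and 4 counts, all in WT CAC mice. Il1f5, Il1f10, Il1rapl1 and Il1rapl2 were at 0 in every mouse. Sigirr, an inhibitory receptor of the family, ranged from 39.9 to 51.5 CPM over all 9 mice, with log2 fold changes of 0.13 (adjusted p = 0.505) and -0.15 (adjusted p = 0.536). Il1rl2, the interleukin-36 receptor, and Il18bp were not called in any comparison, with Il18bp at 1.46 (SE 0.51, adjusted p = 0.0937) in WT CAC against naive WT.

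Of 25 genes for maturation and release, 20 were tested in WT CAC against naive WT, with 3 called higher and 1 lower, where 8.04% and 6.92% of all genes tested were called higher and lower. Mefv passed the filter through WT CAC mice alone in both comparisons with that group. Mefv (pyrin, an inflammasome sensor) rose by 2.23 (SE 0.51, adjusted p = 0.0282), Capn2 (a calpain, the protease family that processes interleukin-1 alpha) by 0.73 (SE 0.12, adjusted p = 0.0129) and Gsdmd (gasdermin D, the pore for interleukin-1 beta release) by 0.82 (SE 0.11, adjusted p = 0.00806) on the log2 scale. Nlrp6, an inflammasome sensor of the gut epithelium, fell by 1.35 (SE 0.16, adjusted p = 0.00664). Nlrp6 had 310, 334 and 320 CPM in naive WT mice, 146, 131 and 93.7 CPM in the WT CAC group and 251, 299 and 214 CPM in Cldn2TG CAC mice, with all WT CAC mice below the other 6. In Cldn2TG CAC against WT CAC, Nlrp6 rose by 1.02 (SE 0.19, adjusted p = 0.0161), and Mefv (-2.82, SE 0.69, adjusted p = 0.0377) and Capn2 (-1.01, SE 0.13, adjusted p = 0.00680) were called lower, 1 and 2 of 20 tested where 2.19% and 7.35% of all genes tested were called higher and lower. Nlrp6 was called in all 6 fits without a mouse in the first comparison and lost without mouse 5, 7, 8 or 9 in the second (0.0536 to 0.0801), and Capn2 was lost without mouse 2 or 3 in the first (0.0665 and 0.0594) and without mouse 8 in the second (0.0520). Gsdmd was lost without mouse 2 (0.0529), and Mefv held only without mouse 4 or 6 in the first comparison and without mouse 4 in the second, with adjusted p up to 0.111 and 0.151. Of 19 tested in Cldn2TG CAC against naive WT, Casp1, the caspase that cleaves Il1b and Il18 proteins, was higher by 0.33 (SE 0.09, adjusted p = 0.0360) and Gsdmd by 0.41 (SE 0.09, adjusted p = 0.0192), where 3.92% of all genes tested were called higher. The call of Gsdmd was lost with library-size scaling (0.0558), all 9 mice in the fit (0.0570) and without mouse 3 (0.0859) or 8 (0.0799). That of Casp1 was lost without each of the 6 mice (0.0566 to 0.140), with library-size scaling (0.125), all 9 mice (0.142) and lane 2 only (0.0599). Nlrp3 had 1 to 5 counts except in mice 5 (37) and 6 (16) and was not tested in any comparison.

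Of 26 receptor signaling genes from Myd88 to Fos, 1 was called in WT CAC against naive WT (Mapk9, lower by 0.37, adjusted p = 0.0420, where 6.92% of all genes tested were called lower), 0 in Cldn2TG CAC against WT CAC by edgeR (6 at an unadjusted p under 0.05, 3 called by DESeq2) and 1 in Cldn2TG CAC against naive WT (Jun, lower by 0.93, SE 0.16, adjusted p = 0.00881, where 6.07% of all genes tested were called lower). Mapk9 was not called with upper-quartile scaling (0.0514), no filter (0.0537), lane 1 only (0.0612) or without any mouse other than mouse 4 (0.0690 to 0.129), and Jun was not called with all 9 mice in the fit (0.0887). The immediate-early genes Fos and Jun had the highest levels of the list. Fos spread from 107 to 621 CPM without a call in any comparison.

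Of 36 genes that interleukin-1 is known to induce, 22 were tested in WT CAC against naive WT, and 12 were called higher and 0 lower, where 8.04% of all genes tested were called higher. The filter bears on this count, since 3 of the 12, Mmp10 among them, reached its minimum in WT CAC mice alone, which leaves 9 calls among the other 19 targets (median log2 fold change 1.75, against 0.02 over all genes tested). In Cldn2TG CAC against WT CAC, 20 were tested, 7 were called lower and 0 higher, where 7.35% of all genes tested were called lower. With Mmp10 and Mmp13 set aside, which reached the minimum in WT CAC mice alone, 5 of 18 targets were called (median -2.07, against 0.01). The 5 genes called in both were the metalloproteinases Mmp10, Mmp9 and Mmp13 and the adhesion molecules Icam1 and Vcam1, with log2 fold changes from 1.75 (Vcam1) to 6.22 (Mmp10) in the first and from -2.45 (Vcam1) to -5.78 (Mmp10) in the second, where being tested already required Mmp10 and Mmp13 to be lower, as it required Mmp10 to be higher in the first. Vcam1 had 4.43, 1.36 and 2.82 CPM in naive WT mice, 7.67, 10.3 and 10.5 CPM in the WT CAC group and 2.14, 1.47 and 1.70 CPM in Cldn2TG CAC mice. For Vcam1, mouse 4 lay nearer to mice 5 and 6 than to the other groups, and the call in Cldn2TG CAC against WT CAC held in all 6 fits without a mouse (adjusted p = 0.00426 with all mice). Icam1, by contrast, had 9.40 CPM in mouse 4 against 34.1 and 38.8 CPM in mice 5 and 6, and at most 5.23 CPM elsewhere. Of the 10 calls of these 5 genes, that 1 of Vcam1 was the sole one kept without each mouse. With no filter, the calls of Mmp10 (0.0685 and 0.137) and Icam1 (0.0853 and 0.112) were lost in both comparisons and that of Mmp9 (0.0614) in the second, where it was also lost with lane 1 only (0.0557). The NF-kB inhibitors Nfkbia and Tnfaip3, the targets with the highest levels, were not called in either comparison with WT CAC. Against naive WT, Cldn2TG CAC mice had 17 targets tested, with Cxcl5, a neutrophil chemokine, called higher (1.54, SE 0.23, adjusted p = 0.00448) and Nfkbia lower (-0.51, SE 0.11, adjusted p = 0.0181). These are 1 target in each direction, where 3.92% and 6.07% of all genes tested were called higher and lower. The call of Nfkbia was lost with all 9 mice in the fit (0.130) and without mouse 3 (0.0797) or 9 (0.0577), and that of Cxcl5 with all 9 mice (0.450). Cxcl5 had 1.56 to 2.19 CPM in naive WT mice, 8.69 CPM in mouse 4, 165 and 151 CPM in mice 5 and 6, and 5.17 to 5.52 CPM in Cldn2TG CAC mice, so it was above naive WT in each CAC mouse.

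**Figure D5:**
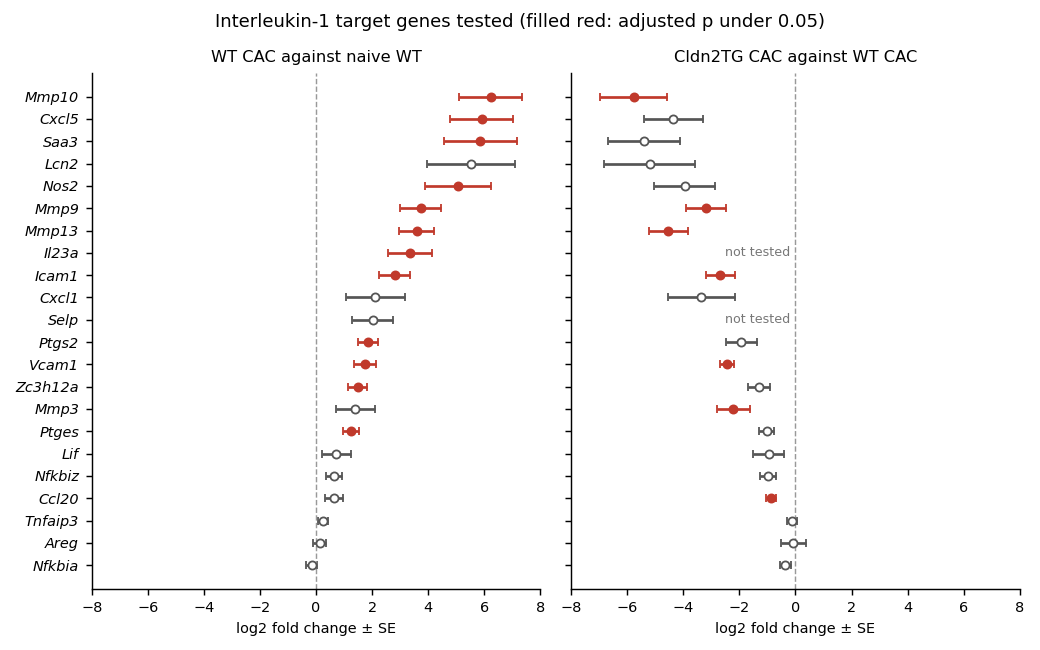
Log2 fold change with its standard error of the 22 interleukin-1 target genes tested in WT CAC against naive WT (left) and of the same genes in Cldn2TG CAC against WT CAC (right); filled red points have an adjusted p under 0.05. The genes called are to the right of 0 in the first and to the left of 0 in the second comparison, which share the WT CAC mice.

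Markers of other cell types were counted in the same way, where 8.04% of all genes tested were called higher in WT CAC against naive WT and 7.35% lower in Cldn2TG CAC against WT CAC. Among 12 neutrophil markers, 4 were tested in WT CAC against naive WT and all 4 were called higher, and of 3 tested in Cldn2TG CAC against WT CAC 2 were called lower. These counts were largely fixed by the filter, since all but Ly6g of those called in the first comparison, and both genes called in the second, reached its minimum in WT CAC mice alone. S100a8, a neutrophil protein, had at most 0.261 CPM in naive WT and Cldn2TG CAC mice, 0.559 CPM in mouse 4, and 18.5 and 13.4 CPM in mice 5 and 6, the order seen for Il1b. Summed without Ly6g, which was high in all mice (137 to 350 CPM) and makes up nearly all of the full sum, these markers reached 0.251 to 0.999 CPM in naive WT, 2.13 to 55.1 CPM in WT CAC and 0.295 to 0.557 CPM in Cldn2TG CAC mice. The full sum was 138 to 208 CPM in naive WT, 300 to 382 CPM in WT CAC and 302 to 351 CPM in Cldn2TG CAC mice. Ly6g was called higher in Cldn2TG CAC than in naive WT mice (log2 fold change 0.87). It was not called in Cldn2TG CAC against WT CAC (0.04). Ngp was at 0 in every mouse, and Mpo had at most 1 count. Of 12 macrophage and monocyte markers tested, 7 rose in WT CAC against naive WT and 9 fell in Cldn2TG CAC against WT CAC, the sum over all 13 being 168 to 203 CPM, 223 to 478 CPM and 113 to 159 CPM in naive WT, WT CAC and Cldn2TG CAC mice. Of the T cell markers, 10 of 11 rose and 8 of 10 fell in these comparisons (sums of 7.18 to 14.6, 27.3 to 46.3 and 8.72 to 14.3 CPM), and 2 and 1 of those tested reached the minimum of the filter in WT CAC mice alone. The 11 markers of mast cells, which are known to carry ST2, summed to 50.8 to 63.8, 43.0 to 106 and 45.1 to 61.2 CPM, much of it from Kit. Without Kit they summed to 9.09 to 10.6 CPM in naive WT, 22.9 to 88.9 CPM in WT CAC and 12.9 to 15.8 CPM in Cldn2TG CAC mice, so that WT CAC lay apart from both other groups. Cma1, part of this sum, averaged 7.53 CPM in naive WT, 11.7 CPM in WT CAC and 12.1 CPM in Cldn2TG CAC mice. It was called higher in Cldn2TG CAC than in naive WT mice and not called in either comparison with WT CAC. Of 6 mast cell markers tested, 4 rose and 1 (Kit) fell in the first comparison, and 1 (Kit) rose and 2 (Mcpt1 and Mcpt2) fell in the second. Of the 4 that rose, 1 reached the minimum of the filter in WT CAC mice alone.

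Stromal and epithelial lists were also compared. Of 10 fibroblast markers, 1 was called higher in the first comparison, about the 8.04% of all genes, and 4 were called lower in the second, against 7.35% (sums of 376 to 533, 556 to 1233 and 230 to 303 CPM), and of 9 endothelial markers 1 and 4 were called (51.3 to 66.4, 51.6 to 73.3 and 32.4 to 40.3 CPM). None of 12 gut epithelium markers was called by edgeR in either comparison, with 2 at an unadjusted p under 0.05 and 1 called by DESeq2 in each, at sums of 25835 to 27794, 23440 to 32210 and 25942 to 33482 CPM. Of 17 squamous epithelium markers, 7 were tested and 4 rose in WT CAC against naive WT, and 2 of 8 fell in Cldn2TG CAC against WT CAC (14.8 to 20.6, 36.2 to 89.4 and 19.2 to 23.6 CPM), with 1 of the 4 that rose brought past the filter by WT CAC mice alone. In Cldn2TG CAC against naive WT, 3 of the fibroblast and 4 of the endothelial markers were called lower, where 6.07% of all genes tested were, and at most 1 marker of each other list was called. These were Ly6g, Cma1, Krt8 and Sbsn, called higher where 3.92% of all genes tested were, and Cd14, called lower. Ly6g was the sole neutrophil marker tested there, and Sbsn reached the minimum of the filter in Cldn2TG CAC mice alone. Krt13 and Krt14, keratins of stratified epithelium, were the 2 squamous markers called in both comparisons with WT CAC, whereas Krt5 had at most 3 counts and Ivl and Sprr3 were at 0 in every mouse. The part of these cell types in the levels of Il1a, Il1b, Il1rl1 and the other members was not tested.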

How the data were processed

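Colon RNA of 9 mice, 3 per group, was sequenced on an Illumina instrument. The authors deposited whole-number read counts per gene for 2 lanes of each library. The labels' processing notes name HISAT2, featureCounts of Subread and GRCm38, whereas the study's methods name TopHat2, and versions and the strand setting are not given in the sources used here. The 18 deposited count columns were summed to 9 libraries, since lanes of 1 library agreed closely. The chi-square per degree of freedom was 0.995 to 1.06 between lanes, against 16.8 to 66.3 between mice of a group. Gene symbols were matched by identifier for 47224 of 47729 genes.

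Each comparison of 2 groups was fitted on its 6 mice with edgeR 4.0.16 in R 4.3.3 (TMM, filterByExpr with a minimum count of 10 and a total of 15, robust quasi-likelihood test, two-sided, Benjamini-Hochberg adjustment over all genes tested, threshold 0.05). Scripts were tested on simulated data. The alternatives were library-size and upper-quartile scaling, DESeq2 1.42.0, no filter, all 9 mice in 1 fit, each lane alone and each mouse left out. Ratios were compared by exact permutation tests (0.5 counts added) with scipy 1.17.1.

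The members, lists and tests were chosen with earlier results of these data known. Named were all members and the other family genes, the genes of each pathway list called in both comparisons with WT CAC, and the 2 with the highest mean CPM. Mapk9, Casp1, Cxcl5 and Nlrp3 fall outside this rule and were named after their values were seen. Of each marker list, a few genes were named beside defining markers at or near 0, some of them for their calls in Cldn2TG CAC against naive WT.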

Additional observations from a re-analysis of the deposited data

How the results depend on the processing

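The calls rested on few mice. Of 912 log2 fold changes recomputed under an alternative, 742 kept their direction and their side of the threshold, 123 lost their call, 23 newly gained one and 24 changed sign, as did 2 of 81 ratios. The 912 include genes that were not called and so had no call to lose. Of the 123 lost calls, 43 of members and 60 of other named genes came from fits that left out 1 mouse. Of 78 recomputed counts of calls, 44 stayed within 1.5 times the reported count, 27 were lower and 7 higher. The cause was not tested. Leaving out 1 mouse in turn gave 135 to 4080 genes called in WT CAC against naive WT, 58 to 2894 in Cldn2TG CAC against WT CAC and 525 to 1383 in Cldn2TG CAC against naive WT, with 0 to 9, 0 to 7 and 0 to 1 members called. The upper ends of the first 2 comparisons came without mouse 4, where Il1a, Il1r2 and Il18r1 passed the filter through WT CAC mice alone. Where 0 members were called there, edgeR gave 5 to 9 at an unadjusted p under 0.05. Depth limited Il1a, Il1r2 and Il18r1, which were not tested in every fit. In Cldn2TG CAC against naive WT, Il1b was tested in 5 and Il1rl1 in 6 of the 7 alternatives that kept all mice.

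In WT CAC against naive WT, lane 2 alone called 3 members instead of 6. Lane 2 alone tested 7 members instead of 9 in each comparison with WT CAC. It held 4023472 to 5757674 counts in mice 6, 7 and 9, where lane 1 held 9143133 to 10119239. When Cldn2TG CAC was compared with WT CAC, 2 members were called with no filter and 1 with lane 2 alone instead of 4, and 2136 genes instead of 1421 with all 9 mice. Against naive WT, no filter called 2567 genes and 1 member, and all 9 mice in the fit 445 genes, instead of 1501 and 0. Library-size scaling shifted the median of all genes by -0.10 in Cldn2TG CAC against WT CAC and by -0.11 against naive WT.

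Several log2 fold changes that were not called changed sign, and are given as ranges over the fits that left out 1 mouse. For WT CAC against naive WT these were Il1rl2 (-0.33 to 0.43), Jun (-0.39 to 0.096) and Nfkbia (-0.30 to 0.039). For Cldn2TG CAC against WT CAC they were Il1rl2 (-0.53 to 0.24) and Tnfaip3 (-0.28 to 0.065). For Cldn2TG CAC against naive WT they were Il1b (-0.17 to 0.32), Il1rn (-0.099 to 0.33), Il1rap (-0.33 to 0.048), Il18 (-0.32 to 0.097), Il33 (-0.24 to 0.026), Il1rl1 (-1.05 to 0.34), Fos (-0.077 to 1.06), Icam1 (-0.093 to 0.38), Il1rl2 (-0.26 to 0.16) and Sigirr (-0.074 to 0.093). In the same comparison the sign also changed for Il1b with library-size scaling (-0.022), for Il33 (0.14) and Icam1 (-0.0059) with lane 1 and for Il1rap (0.080) and Sigirr (0.050) with lane 2. The log2 ratio of Il1rn to Il1b there ranged from -0.30 to 0.43. No paired analysis was possible because the replicate numbers 1 to 9 are each used once and no 2 groups share any.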

Other observations

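The genes whose profiles over the 9 mice were most like those of 3 members were looked up among 13884 genes with a mean of at least 1 CPM. Likeness was the root mean square difference of log2 CPM, each gene centred on its own mean, given as a description. The closest to Il1b were Mmp9 (0.313), a metalloproteinase of neutrophils and macrophages, Mfsd2a (0.333), a lipid transporter, and Plat (0.452), the tissue plasminogen activator. Mfsd2a averaged 2.37 CPM in naive WT, 31.6 in WT CAC and 2.34 in Cldn2TG CAC mice, and Plat 4.11, 44.9 and 5.08 CPM. The closest to Il1rn were Grk4 (0.122), Tnik (0.132) and Csgalnact2 (0.143). The closest to Il18 were Hsd17b2 (0.150), a steroid dehydrogenase, Acot2 (0.150), a thioesterase, and Ggh (0.151), a folate hydrolase. Hsd17b2 averaged 194 CPM in naive WT, 110 in WT CAC and 169 in Cldn2TG CAC mice.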
